A study of Homo sapiens with 12 samples.

Results

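The genes described here are 30 genes of cholesterol synthesis, uptake, transport and efflux, chosen by symbol from the 60664 genes of a count table of MDA-MB-231 cells. MDA-MB-231 is an established human triple-negative breast cancer cell line. All 30 were among the 17544 genes that passed a filter on low counts. By role they comprised 7 genes of the mevalonate arm, 11 of the squalene and sterol arm, 1 sterol carrier, 4 genes that control SREBP, 2 of export from the lysosome, 2 LXR receptors and 3 genes that LXR drives.

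Wild-type cells were grown to confluence of 70 to 80% at pH 7.4 and then moved for 24 h to medium adjusted to pH 6.4 (4 libraries), pH 6.9 (4 libraries) or pH 7.4 (4 libraries). The pH 7.4 medium served as control, and no other agent or allele separated the groups. The label of the intermediate medium reads pH 6.9, while the protocol gives pH 6.7 for it. The name pH 6.9 is kept here, although the actual value is uncertain. Libraries were numbered as repeats, which does not state separate cultures, so the p-values measure only the spread between these samples, all from 1 line.

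Cells make cholesterol from acetyl-CoA, first along the mevalonate arm to farnesyl diphosphate and then by way of squalene and lanosterol. The transcription factor SREBP2, the product of SREBF2, drives most of these enzymes. SCAP escorts SREBP2 out of the endoplasmic reticulum when membrane sterol is low, and the INSIG proteins hold SCAP back when sterol is plentiful. Cholesterol taken up in lipoprotein leaves the lysosome through NPC2 and NPC1. Oxysterols activate the LXR receptors, which switch on the exporters ABCA1 and ABCG1 and the ubiquitin ligase MYLIP, a brake on lipoprotein uptake.

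Promoters of 4 of the genes are shown because they span the range of motifs found, though without NPC1, which rose at pH 6.4. Each runs from 250 bases before to 50 after the RefSeq start on GRCh38.p14, read 5′ to 3′ on the gene's own strand. Capitals mark a CCAAT box, which reads ATTGG where it lies on the other strand, or the sterol regulatory element TCACNCCAC.
MVK, chr12:109573544-109573843, plus strand: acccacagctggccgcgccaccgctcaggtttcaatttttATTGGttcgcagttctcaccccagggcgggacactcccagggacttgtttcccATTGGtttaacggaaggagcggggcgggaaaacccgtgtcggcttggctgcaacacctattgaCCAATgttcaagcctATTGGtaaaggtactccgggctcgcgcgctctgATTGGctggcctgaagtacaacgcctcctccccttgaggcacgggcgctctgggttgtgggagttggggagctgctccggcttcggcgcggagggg
MSMO1, chr4:165327419-165327718, plus strand: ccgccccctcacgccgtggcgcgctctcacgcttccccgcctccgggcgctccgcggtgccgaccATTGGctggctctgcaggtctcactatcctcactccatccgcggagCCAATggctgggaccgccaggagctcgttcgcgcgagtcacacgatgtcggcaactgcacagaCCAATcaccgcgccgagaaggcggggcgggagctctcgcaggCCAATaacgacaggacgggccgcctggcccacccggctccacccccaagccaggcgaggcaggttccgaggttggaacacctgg
PMVK, chr1:154936670-154936969, minus strand: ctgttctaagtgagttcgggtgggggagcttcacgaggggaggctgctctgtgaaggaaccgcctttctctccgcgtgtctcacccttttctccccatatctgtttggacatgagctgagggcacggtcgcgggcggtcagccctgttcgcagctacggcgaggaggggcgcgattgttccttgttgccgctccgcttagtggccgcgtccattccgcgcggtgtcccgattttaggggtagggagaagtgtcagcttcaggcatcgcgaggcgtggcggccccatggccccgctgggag
SREBF2, chr22:41832855-41833154, plus strand: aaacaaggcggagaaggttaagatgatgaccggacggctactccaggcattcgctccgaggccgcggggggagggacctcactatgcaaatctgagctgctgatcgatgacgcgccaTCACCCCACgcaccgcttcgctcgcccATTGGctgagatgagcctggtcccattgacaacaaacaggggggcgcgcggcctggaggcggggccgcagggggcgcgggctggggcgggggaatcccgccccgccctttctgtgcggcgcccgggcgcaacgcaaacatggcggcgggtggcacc
The MVK promoter held 5 CCAAT boxes and the MSMO1 promoter 4. No match to either motif lay in the PMVK window. The SREBF2 window held the sterol regulatory element and 1 CCAAT box. The table of RefSeq promoters used here covered 26 of the 30 genes, with 36 windows in all, and lacked ACAT2, FDFT1, SQLE and ABCG1. Both strands were searched, and a match to either motif cannot contain a match to the other. A CCAAT box was found in 15 of 20 windows of synthesis genes (75.0%) and in 6 of 16 windows of the other genes (37.5%), against 34.6% of all 35116 windows of the table. Some genes have several windows, which can overlap. By gene, a CCAAT box was found for 13 of 15 synthesis genes and 6 of 11 others, against 10846 of 27305 genes of the table. The sterol regulatory element was found in 1 of the 36 windows (2.78%), that of SREBF2, against 1.13% of all windows. It was found in 0 of 20 windows of synthesis genes. Only exact matches to its letters were counted.

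Libraries held 21060767 to 50643233 counts. The libraries with the fewest detected genes were pH 6.9 repeat 2 with 21628 and pH 7.4 repeat 1 with 17841, against 23113 to 27384 in the other 10. All 10 markers of the line were present, with summed levels of 9610 to 13199 CPM at pH 6.4, 8454 to 10343 CPM at pH 6.9 and 8190 to 9148 CPM at pH 7.4, where CPM is the count scaled to the TMM library size. Of 10 luminal breast markers, 5 had a median under 1 CPM, and KRT19 reached 219 CPM or more in every library. The luminal list summed to 297 to 366 CPM at pH 6.4, 280 to 349 CPM at pH 6.9 and 291 to 381 CPM at pH 7.4. Of 8 blood and stroma markers, 5 had a median under 1 CPM and CD3E was at 0 in all 12 libraries. That list summed to 27.1 to 35.0 CPM at pH 6.4, 32.5 to 40.7 CPM at pH 6.9 and 43.2 to 52.0 CPM at pH 7.4, and its part in the results was not tested.

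The 18 synthesis genes were the largest block, and their summed level was lower in both acid media than at pH 7.4. Together they had 1480 ± 228 CPM at pH 6.4, 1543 ± 166 CPM at pH 6.9 and 2463 ± 279 CPM at pH 7.4 (SD, n = 4 each). Their summed level lay between 1195 and 1753 CPM in the pH 6.4 libraries, between 1298 and 1654 CPM in the pH 6.9 libraries and between 2059 and 2681 CPM in the pH 7.4 libraries, so neither acid medium overlapped pH 7.4. Their mean share of a library's counts was 0.142% in pH 6.4 medium, 0.157% in pH 6.9 medium and 0.251% in pH 7.4 medium. In these bulk libraries, less RNA per cell and fewer cells with that RNA cannot be told apart.

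Between pH 6.4 and pH 7.4, 20 of the 30 genes fell and 1 rose, by edgeR's quasi-likelihood test at a Benjamini-Hochberg adjusted p under 0.05 over all tested genes. Across all genes 14.7% were called lower and 15.6% higher. The libraries of the pH 6.4 and pH 7.4 media did not overlap for 17 of the 30, against 27.9% of all genes. The median log2 fold change was -0.55 for the 30 genes, -0.79 for the 18 synthesis genes and -0.00083 for all genes. Of the synthesis genes 16 fell, and the others, SQLE and MSMO1, had the same sign. Without the pair of libraries with the fewest detected genes, 17 of the 30 were called lower and 1 higher. With scaling by library size alone, 59.6% of all calls were lower, against 48.6% with TMM, and 23 of the 30 were called lower.

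Between pH 6.9 and pH 7.4, 8 of the 30 genes fell and none rose. These were ACAT2, MVK, FDFT1, SQLE, LSS, HSD17B7, SC5D and DHCR7, all of them synthesis genes. Only 0.41% of all genes were called lower here and 0.313% higher. Libraries of the pH 6.9 and pH 7.4 media did not overlap for 19 of the 30, against 10.1% of all genes. The median log2 fold change was -0.54 for the 30 genes and -0.69 for the synthesis genes, against 0.0093 for all genes. No member was higher at an unadjusted p under 0.05 by edgeR, nor called higher by DESeq2, while 21 were lower at that unadjusted p and DESeq2 called 16 lower. Of all 17544 genes, 1006 were lower and 1086 higher at that unadjusted p. DESeq2 called 262 of all genes lower and 244 higher. With the repeat number as a block, 19 of the 30 were called lower. More of all genes were called with the block too, as given in the last section. Without both libraries of few detected genes only SC5D was called, and the other 7 had adjusted p between 0.0605 (DHCR7) and 0.248 (FDFT1). The count was 16 without pH 6.4 repeat 3, a library of neither medium compared here, 5 without pH 6.9 repeat 2, and 4 without pH 6.9 repeat 4 or pH 7.4 repeat 3.

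Between pH 6.4 and pH 6.9, 6 genes fell and 1 rose. ACAT2, MVK, PMVK, LSS, NPC2 and ABCG1 were the 6, and NPC1 was the 1 that rose. Across all genes 8.2% were called lower and 8.83% higher. Libraries of these media did not overlap for 8 of the 30, against 20.4% of all genes. The median log2 fold change was -0.13 for the 30 genes and -0.014 for all genes. Without pH 6.4 repeat 3 the count was 7 lower and 6 higher. With the block 11 were called lower and 2 higher, and without both libraries of few detected genes 5 were lower and 1 higher. With scaling by library size alone, 61.8% of all calls were lower, against 48.1% with TMM. The comparisons of pH 6.4 and of pH 6.9 with pH 7.4 share the pH 7.4 libraries, and their values are given side by side.

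**Figure D1:**
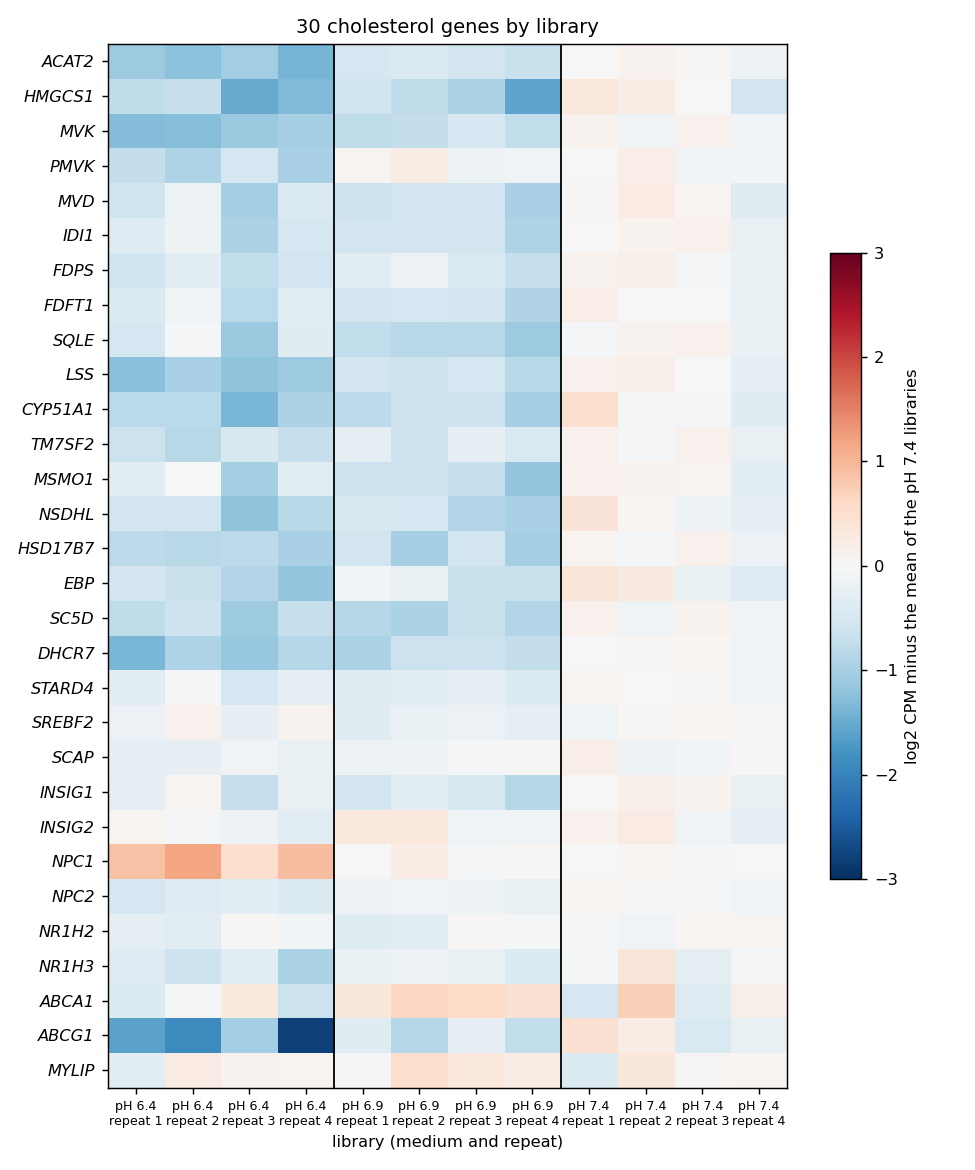
Level of each of the 30 genes in each library, as log2 CPM minus the mean of the 4 pH 7.4 libraries, with genes in pathway order and libraries in columns. Values run from -2.81 to 1.17, with NPC1 the row that is highest at pH 6.4 and ABCG1 the row with the lowest value.

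In the mevalonate arm all 7 genes fell at pH 6.4 relative to pH 7.4, with log2 fold changes between -1.19 and -0.48. At pH 6.9, 2 of the 7 fell, with log2 fold changes of the arm between -0.97 and 0.0094 relative to pH 7.4. Called lower were 14.7% of all genes at pH 6.4 and 0.41% at pH 6.9.

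ACAT2 makes acetoacetyl-CoA, the first step of the route. It had 83.8, 75.7, 86.1 and 67.6 CPM in the pH 6.4 libraries, 127, 134, 122 and 112 CPM at pH 6.9, and 182, 192, 182 and 161 CPM at pH 7.4. No medium overlapped another, and the level was lower with each step of acidity. The log2 fold change was -1.19 (SE 0.092; adjusted p = 2.41e-06) for pH 6.4 against pH 7.4 and -0.66 (SE 0.091; adjusted p = 0.00186) for pH 6.4 against pH 6.9. For pH 6.9 against pH 7.4 it was -0.53 (SE 0.091; adjusted p = 0.0133), a call that was lost without pH 6.9 repeat 4 or pH 7.4 repeat 3 (adjusted p = 0.0552 to 0.0572). ACAT2 lies at chr6:159760328-159779055 on GRCh38, and 26.5% of its exonic bases are shared with SOD2 and 33.9% with SOD2-OT1 on the opposite strand. The sources used here do not say whether counting used strand.

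HMGCS1, the cytosolic synthase that adds a further acetyl group, had 152, 158, 89.7 and 103 CPM at pH 6.4, 169, 150, 131 and 85.1 CPM at pH 6.9, and 316, 297, 258 and 175 CPM at pH 7.4. Repeat 4 was the lowest library at pH 6.9 and at pH 7.4, and even so neither acid medium overlapped pH 7.4. HMGCS1 fell 2.08-fold at pH 6.4 (log2 -1.06, SE 0.23; adjusted p = 0.00343). At pH 6.9 its log2 difference from pH 7.4 was nearly as large, -0.97 (SE 0.23), and was not called (adjusted p = 0.0724), although it was with the block (adjusted p = 0.000775) and without pH 6.4 repeat 3 or pH 7.4 repeat 4 (adjusted p = 0.0395 to 0.0416). HMGCS1 at pH 6.4 and pH 6.9 differed by -0.09 (95% interval -0.58 to 0.39).

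MVK, the mevalonate kinase, had 20.5, 20.8, 23.6 and 25.3 CPM at pH 6.4, 30.1, 31.0, 35.7 and 30.6 CPM at pH 6.9, and 54.1, 46.0, 55.2 and 48.1 CPM at pH 7.4. The media stood in steps without overlap, as for ACAT2. MVK was lower at pH 6.9 than at pH 7.4 by a log2 fold change of -0.68 (SE 0.10; adjusted p = 0.00532) and lower at pH 6.4 than at pH 6.9 by -0.50 (SE 0.10; adjusted p = 0.00689). The gene lies at chr12:109573255-109598117, and its promoter, shown above, held 5 CCAAT boxes, as did that of NSDHL.

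PMVK, the next kinase, fell at pH 6.4 against both other media. It had 12.2, 10.6, 13.9 and 10.2 CPM at pH 6.4, 21.3, 23.4, 18.2 and 18.4 CPM at pH 6.9, and 20.0, 23.2, 18.6 and 18.9 CPM at pH 7.4. The pH 6.4 libraries lay below all others, and the pH 6.9 and pH 7.4 libraries overlapped. PMVK at pH 6.4 was lower than at pH 6.9 by a log2 fold change of -0.79 (SE 0.13; adjusted p = 0.00369) and lower than at pH 7.4 by -0.79 (SE 0.13; adjusted p = 0.000633). Between pH 6.9 and pH 7.4 the difference was 0.0094 (95% interval -0.27 to 0.29; adjusted p = 0.991).

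MVD, IDI1 and FDPS carry the route on to farnesyl diphosphate. MVD, the decarboxylase, averaged 28.1 ± 6.73 CPM at pH 6.4, 25.0 ± 3.20 CPM at pH 6.9 and 40.5 ± 6.69 CPM at pH 7.4 (SD, n = 4 each). It fell at pH 6.4 (log2 -0.53; adjusted p = 0.028), and the call was lost without pH 6.4 repeat 1 or 3 or pH 7.4 repeat 1, 2 or 3 (adjusted p = 0.0515 to 0.0881). IDI1, the isomerase, averaged 153 ± 33.7, 137 ± 15.9 and 215 ± 22.3 CPM at pH 6.4, 6.9 and 7.4 (SD, n = 4 each), with a fall at pH 6.4 (log2 -0.48; adjusted p = 0.0179) that was lost without pH 7.4 repeat 3 (adjusted p = 0.0512). FDPS, the farnesyl diphosphate synthase, fell at pH 6.4 as well (log2 -0.56; adjusted p = 0.00288). At pH 6.9 the log2 differences from pH 7.4 were -0.69 for MVD, -0.65 for IDI1 and -0.41 for FDPS, with adjusted p of 0.0805, 0.0501 and 0.145. All 3 were called there with the block, with adjusted p of 0.017 for MVD, 0.0103 for IDI1 and 0.00573 for FDPS. Without pH 6.4 repeat 3 MVD was called at pH 6.9 (adjusted p = 0.0253), and IDI1 without pH 6.4 repeat 2 or 3 (adjusted p = 0.00821 to 0.0285). Pseudogene copies of FDPS are annotated in number, 8 by symbol, and the largest count of any of them in a library was 10.

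**Figure D2:**
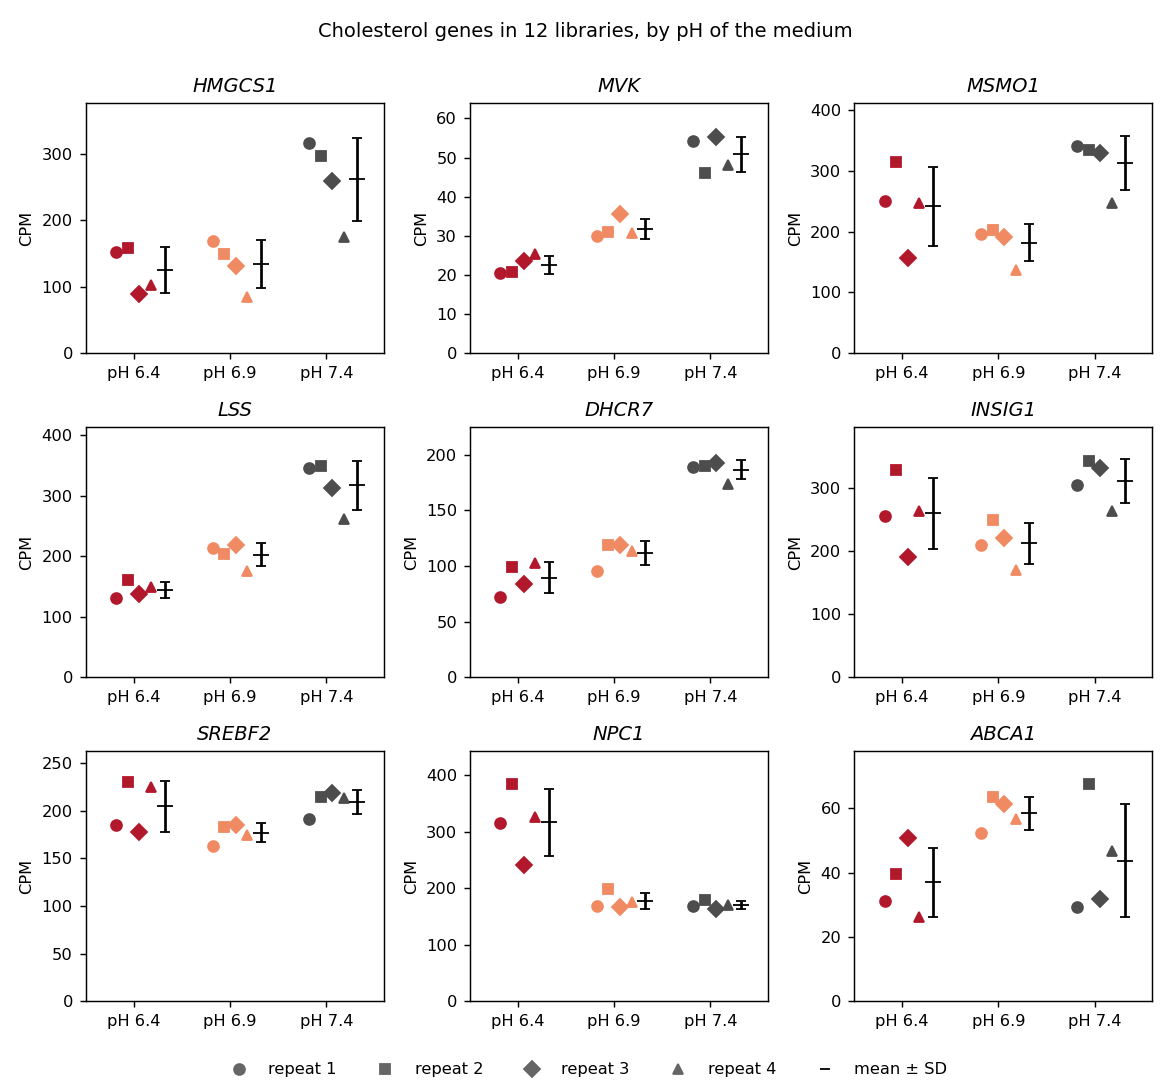
CPM of 9 of the genes in each library, with 1 point per library, a marker shape per repeat and the mean ± SD beside them, for pH 6.4, pH 6.9 and pH 7.4. MVK and LSS stand in steps without overlap, HMGCS1 and DHCR7 are lower in both acid media than at pH 7.4, and NPC1 is higher at pH 6.4 than in the other media.

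In the squalene and sterol arm 9 of 11 genes fell at pH 6.4 and 6 of 11 at pH 6.9, each relative to pH 7.4. Of all genes 14.7% were called lower at pH 6.4 and 0.41% at pH 6.9. The median log2 fold change of the arm was -0.79 at pH 6.4 and -0.74 at pH 6.9.

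FDFT1 and SQLE, the squalene synthase and the squalene epoxidase, head the arm and had their lowest means at pH 6.9. FDFT1 had 183, 223, 138 and 190 CPM at pH 6.4, 165, 168, 162 and 129 CPM at pH 6.9, and 277, 243, 246 and 208 CPM at pH 7.4. It fell at pH 6.9 (log2 -0.64, SE 0.13; adjusted p = 0.0403) and at pH 6.4 (log2 -0.41, SE 0.13; adjusted p = 0.0306). SQLE had 42.7, 59.8, 28.1 and 47.5 CPM at pH 6.4, 37.0, 34.3, 34.3 and 28.8 CPM at pH 6.9, and 59.5, 66.2, 66.4 and 53.6 CPM at pH 7.4. The pH 6.4 libraries of SQLE spread widely and overlapped both other media. SQLE fell 1.83-fold at pH 6.9 (log2 -0.87, SE 0.17; adjusted p = 0.0341), and its log2 difference of -0.46 at pH 6.4 was not called (adjusted p = 0.0527, or 0.029 with the block). With 1 library left out, the log2 fold change of FDFT1 for pH 6.9 against pH 7.4 stayed between -0.71 and -0.56. For SQLE it stayed between -0.93 and -0.80. The calls themselves had adjusted p near 0.05 and were often lost when 1 library was left out. That of FDFT1 at pH 6.9 was lost without any of pH 6.4 repeats 1 and 4, the 4 pH 6.9 repeats and pH 7.4 repeats 1, 2 and 3 (adjusted p = 0.0523 to 0.141). The SQLE call at pH 6.9 was lost without pH 6.4 repeat 1, any pH 6.9 repeat or pH 7.4 repeat 1, 2 or 3 (adjusted p = 0.0522 to 0.132). FDFT1 at pH 6.4 lost its call without pH 6.4 repeat 1, 3 or 4 or pH 7.4 repeat 1, 2 or 3 (adjusted p = 0.055 to 0.0872), and SQLE gained one there without pH 6.4 repeat 2 (adjusted p = 0.0105). Without pH 6.4 repeat 3 both genes were called higher at pH 6.4 than at pH 6.9, with adjusted p of 0.0309 for FDFT1 and 0.00345 for SQLE.

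LSS, which closes the ring to give lanosterol, followed the stepwise course. It had 131, 161, 137 and 149 CPM at pH 6.4, 213, 203, 218 and 176 CPM at pH 6.9, and 346, 349, 312 and 261 CPM at pH 7.4. No medium overlapped another. LSS was lower at pH 6.9 than at pH 7.4 by a log2 fold change of -0.65 (SE 0.10; adjusted p = 0.0101), and lower at pH 6.4 than at pH 6.9 by -0.49 (SE 0.10; adjusted p = 0.00837). The ratio of SQLE to LSS counts within a library was 0.325, 0.372, 0.206 and 0.319 at pH 6.4, 0.173, 0.169, 0.157 and 0.164 at pH 6.9, and 0.172, 0.190, 0.213 and 0.205 at pH 7.4. It was highest at pH 6.4 in 3 of the 4 libraries, and pH 6.4 repeat 3 lay among the pH 7.4 values.

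MSMO1, the methylsterol monooxygenase, had the highest level per kilobase of exon of the 30 genes at pH 7.4, 108 ± 15.2 CPM per kb. Its levels were 250, 314, 156 and 247 CPM at pH 6.4, 197, 202, 192 and 137 CPM at pH 6.9, and 340, 333, 328 and 246 CPM at pH 7.4. The pH 6.9 libraries all lay below those at pH 7.4, and the pH 6.4 libraries overlapped both. The log2 differences of MSMO1 from pH 7.4, -0.37 at pH 6.4 (95% interval -0.75 to 0.013; adjusted p = 0.134) and -0.78 at pH 6.9 (adjusted p = 0.0671), were not called. With the block the adjusted p at pH 6.9 was 0.0127, and it was 0.0125 to 0.0418 without pH 6.4 repeat 2 or 3. Without pH 6.4 repeat 2 the pH 6.4 difference was called (adjusted p = 0.0484), as it was for MSMO1 with scaling by library size alone (adjusted p = 0.0471), and without pH 6.4 repeat 3 MSMO1 was called higher at pH 6.4 than at pH 6.9 (adjusted p = 0.00869).

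Of the remaining sterol enzymes, DHCR7 makes cholesterol itself in the last step. It had 72.4, 98.7, 84.1 and 103 CPM at pH 6.4, 95.8, 119, 119 and 113 CPM at pH 6.9, and 189, 190, 192 and 174 CPM at pH 7.4. Every acid library lay well below every pH 7.4 library. DHCR7 fell at pH 6.4 (log2 -1.06, SE 0.11; adjusted p = 2.61e-05) and at pH 6.9 (log2 -0.74, SE 0.11; adjusted p = 0.00512), and its difference between pH 6.4 and pH 6.9 was not called (log2 -0.32; adjusted p = 0.0534, or 0.0153 with the block and 0.0448 to 0.0472 without pH 6.4 repeat 4 or pH 6.9 repeat 1). SC5D, the sterol desaturase before it, had 101 ± 13.03 CPM at pH 6.4, 96.8 ± 8.06 CPM at pH 6.9 and 173 ± 15.8 CPM at pH 7.4 (SD, n = 4 each). It fell in both acid media, by a log2 fold change of -0.78 at pH 6.4 (adjusted p = 0.000123) and -0.84 at pH 6.9 (adjusted p = 0.00141), and was the gene still called at pH 6.9 without both libraries of few detected genes. HSD17B7, a ketosteroid reductase, had 12.3 ± 0.70, 13.1 ± 2.27 and 22.2 ± 2.07 CPM at pH 6.4, 6.9 and 7.4 (SD, n = 4 each). HSD17B7 fell at pH 6.4 (log2 -0.85; adjusted p = 0.000358) and at pH 6.9 (log2 -0.76; adjusted p = 0.0133), the call at pH 6.9 being lost without pH 6.9 repeat 2 or 4 or pH 7.4 repeat 3 (adjusted p = 0.0572 to 0.0697). Its pseudogene HSD17B7P2 had counts of 32 to 142 in these libraries, and reads of such copies may have been split between them.

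NSDHL, EBP, TM7SF2 and CYP51A1, which trim and rearrange the sterol ring, fell at pH 6.4 and were not called at pH 6.9. Their log2 fold changes at pH 6.4 were -0.79 for NSDHL, -0.83 for EBP, -0.66 for TM7SF2 and -1.0001 for CYP51A1, with adjusted p of 0.00368, 0.00422, 0.00162 and 0.00183. At pH 6.9 they were -0.72, -0.42, -0.40 and -0.78 in the same order, and each was called with the block, with adjusted p of 0.00128, 0.00864, 0.0248 and 0.0253. Without pH 6.4 repeat 3 NSDHL (adjusted p = 0.0298) and CYP51A1 (adjusted p = 0.0459) were called there too. CYP51A1 shares 79.4% of its exonic bases with AC000120.2 on the same strand. Its level, 4.19 ± 0.71 CPM at pH 6.4, 4.88 ± 0.56 CPM at pH 6.9 and 8.39 ± 2.16 CPM at pH 7.4 (SD, n = 4 each), is therefore uncertain. AC000120.2 was listed at 0 in all 12 libraries. The pseudogene CYP51A1P2 had counts of 8 to 96 in a library, beside 123 to 395 for CYP51A1 itself.

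**Figure D3:**
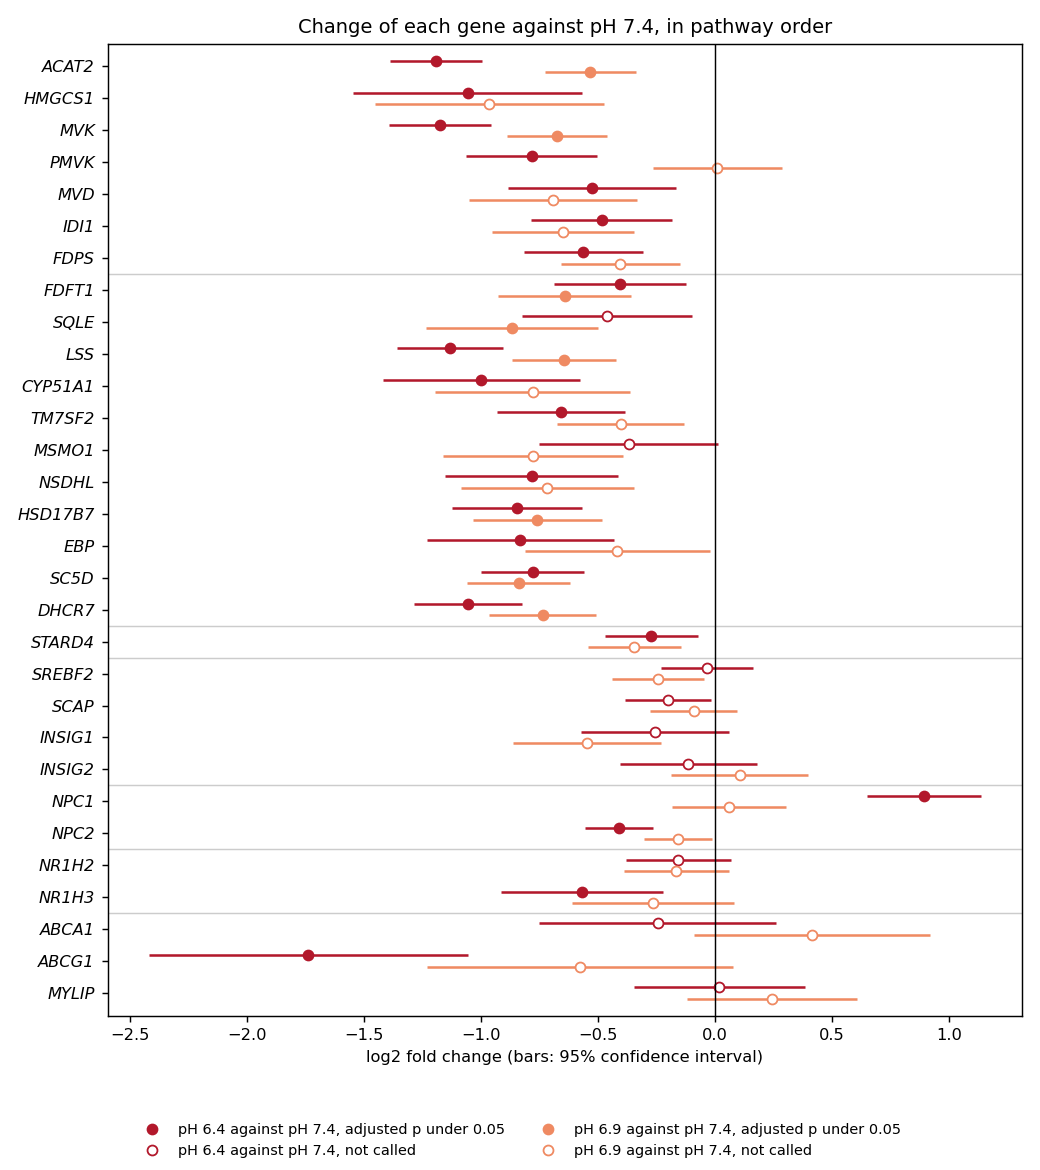
Log2 fold change of each gene for pH 6.4 against pH 7.4 and pH 6.9 against pH 7.4, with 95% confidence intervals, in pathway order. Filled points have an adjusted p under 0.05, which holds for 21 genes at pH 6.4 and 8 at pH 6.9, and NPC1 is the filled point on the right of 0.

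The sterol carrier STARD4 moves cholesterol between membranes. It averaged 115 ± 16.2 CPM at pH 6.4, 109 ± 3.75 CPM at pH 6.9 and 139 ± 8.06 CPM at pH 7.4 (SD, n = 4 each). STARD4 fell 1.21-fold at pH 6.4 (log2 -0.27; adjusted p = 0.0371), a call lost without any of 9 libraries, namely pH 6.4 repeats 1, 3 and 4, pH 6.9 repeats 1, 3 and 4 and pH 7.4 repeats 1, 2 and 3 (adjusted p = 0.0506 to 0.0937). At pH 6.9 the log2 difference was -0.35 (adjusted p = 0.113, or 0.0298 with the block and 0.0371 without pH 6.4 repeat 3).

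Of the 4 genes that control SREBP, edgeR called none in any comparison when all 12 libraries were fitted with TMM scaling and no block. At an unadjusted p under 0.05, 1 was lower for pH 6.4 against pH 7.4, 2 were lower for pH 6.9 against pH 7.4 and 1 was higher for pH 6.4 against pH 6.9. Of all 17544 genes, 3587 were lower at that p for pH 6.4 against pH 7.4 and 1006 for pH 6.9 against pH 7.4. For pH 6.4 against pH 6.9, 2775 of them were higher. DESeq2 called 1 of the 4, INSIG1, for pH 6.9 against pH 7.4 (adjusted p = 0.0248) and none in the other comparisons. It called 262 of all genes lower for pH 6.9 against pH 7.4.

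SREBF2, whose own promoter holds the sterol regulatory element shown above, had 185, 231, 178 and 225 CPM at pH 6.4, 163, 183, 186 and 175 CPM at pH 6.9, and 191, 214, 218 and 214 CPM at pH 7.4. The pH 6.9 libraries all lay below those at pH 7.4, and the pH 6.4 libraries spanned both. Its log2 difference was -0.03 for pH 6.4 against pH 7.4 (95% interval -0.23 to 0.16) and -0.24 for pH 6.9 against pH 7.4 (95% interval -0.44 to -0.048; adjusted p = 0.282). SCAP, the escort, had log2 differences from pH 7.4 of -0.20 at pH 6.4 (adjusted p = 0.0919, or 0.0356 with scaling by library size alone) and -0.09 at pH 6.9 (adjusted p = 0.762). For pH 6.4 against pH 6.9 SREBF2 differed by 0.21 (adjusted p = 0.131), and it was called higher with the block (adjusted p = 0.0413) and without pH 6.4 repeat 3 (adjusted p = 0.032).

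INSIG1, itself induced by SREBP2, had 256, 329, 191 and 263 CPM at pH 6.4, 210, 249, 221 and 170 CPM at pH 6.9, and 305, 343, 331 and 264 CPM at pH 7.4. As for SREBF2, the pH 6.9 libraries lay below those at pH 7.4 and the pH 6.4 libraries overlapped both. The log2 difference of INSIG1 from pH 7.4 was -0.26 at pH 6.4 (95% interval -0.57 to 0.058) and -0.55 at pH 6.9 (95% interval -0.87 to -0.23; adjusted p = 0.114, or 0.0166 with the block). INSIG1 was called lower at pH 6.9 without pH 6.4 repeat 3 (adjusted p = 0.0371) and with those media alone in the fit (adjusted p = 0.0474), and higher at pH 6.4 than at pH 6.9 without that same library (adjusted p = 0.0273). INSIG2, which is not driven by SREBP2 in this way, averaged 62.7 ± 7.71 CPM at pH 6.4, 72.9 ± 12.5 CPM at pH 6.9 and 67.9 ± 10.7 CPM at pH 7.4 (SD, n = 4 each). For pH 6.4 against pH 6.9 the INSIG2 difference was called lower with the block (log2 -0.21; adjusted p = 0.0267) and not without it (adjusted p = 0.301).

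**Figure D4:**
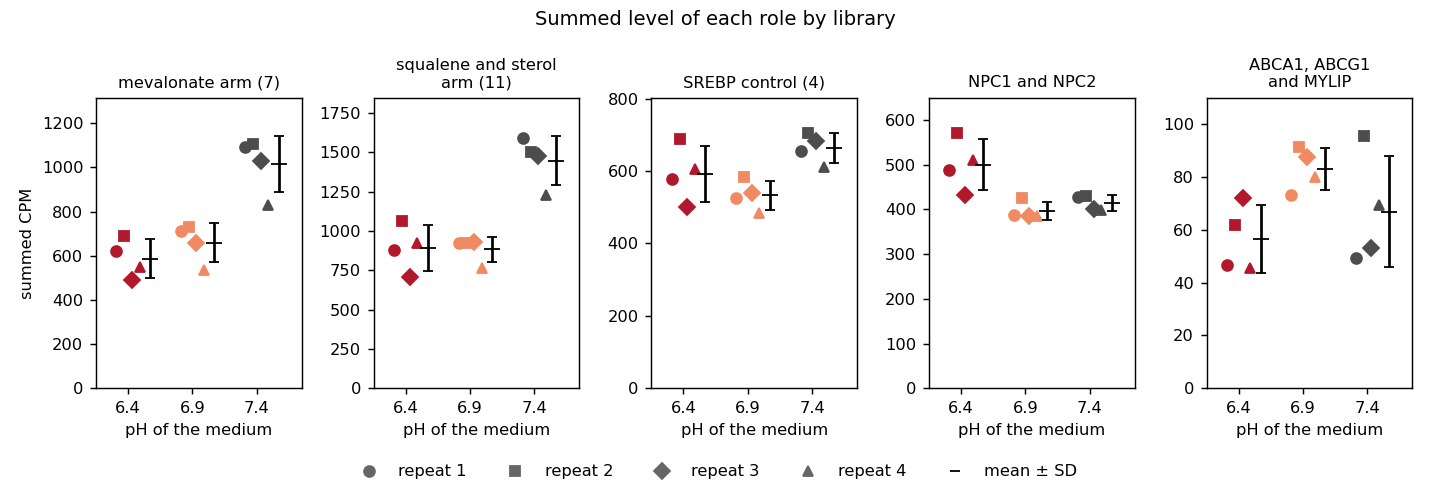
Summed CPM of the genes of each role in each library, with 1 point per library, a marker shape per repeat and the mean ± SD, for pH 6.4, pH 6.9 and pH 7.4. Both arms of synthesis are lower in the acid media than at pH 7.4, and NPC1 with NPC2 averaged 499.8 CPM at pH 6.4, 396 CPM at pH 6.9 and 414 CPM at pH 7.4.

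Lysosomal export split. NPC1, the membrane protein that passes cholesterol out of the lysosome, had 315, 385, 241 and 326 CPM at pH 6.4, 169, 199, 167 and 176 CPM at pH 6.9, and 169, 180, 163 and 171 CPM at pH 7.4. Every pH 6.4 library lay above every other library, and the pH 6.9 and pH 7.4 libraries overlapped. NPC1 rose 1.85-fold at pH 6.4 over pH 7.4 (log2 0.89, SE 0.11; adjusted p = 0.000103) and 1.78-fold over pH 6.9 (log2 0.83, SE 0.11; adjusted p = 0.0018). Between pH 6.9 and pH 7.4 its log2 difference was 0.06 (95% interval -0.18 to 0.30). It lies at chr18:23506184-23586898, and 5.98% of its exonic bases are shared with RMC1 on the opposite strand.

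NPC2, the soluble lysosomal carrier that hands cholesterol to NPC1, had 173, 185, 191 and 184 CPM at pH 6.4, 218, 227, 218 and 210 CPM at pH 6.9, and 259, 251, 237 and 227 CPM at pH 7.4. The media did not overlap, with pH 6.4 the lowest, but the highest pH 6.9 library (226.7 CPM) lay just under the lowest at pH 7.4 (227.3 CPM). For pH 6.9 against pH 7.4 the log2 difference of NPC2 was -0.16 and was not called (adjusted p = 0.361). NPC2 fell 1.33-fold at pH 6.4 against pH 7.4 (log2 -0.41, SE 0.068; adjusted p = 0.000601) and 1.19-fold against pH 6.9 (log2 -0.25, SE 0.068; adjusted p = 0.0225). The NPC2 call between pH 6.4 and pH 6.9 was lost without pH 6.4 repeat 1, 2 or 4 or pH 6.9 repeat 1, 2 or 3 (adjusted p = 0.0547 to 0.0688), and without both libraries of few detected genes (adjusted p = 0.0516). The ratio of NPC1 to NPC2 counts within a library was 1.82, 2.08, 1.26 and 1.77 at pH 6.4, 0.773, 0.878, 0.769 and 0.837 at pH 6.9, and 0.653, 0.718, 0.689 and 0.752 at pH 7.4.

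On the LXR side ABCG1, an exporter to lipoprotein particles, had the largest fold change of the 30 between pH 6.4 and pH 7.4. Its levels were 1.66, 1.34, 2.47 and 0.719 CPM at pH 6.4, 3.94, 2.78, 4.26 and 3.03 CPM at pH 6.9, and 6.97, 5.87, 3.68 and 4.30 CPM at pH 7.4. All pH 6.4 libraries lay below the rest, and they held only 21 to 105 counts of ABCG1. Its level per kilobase was the lowest of the 30 genes, 0.25 CPM per kb at pH 6.4 and 0.85 CPM per kb at pH 7.4. ABCG1 fell 3.34-fold at pH 6.4 against pH 7.4 (log2 -1.74, SE 0.32; adjusted p = 0.00115) and 2.24-fold against pH 6.9 (log2 -1.16, SE 0.32; adjusted p = 0.0238). Without pH 6.4 repeat 2 or 4 or pH 6.9 repeat 1 or 3 the call against pH 6.9 was lost (adjusted p = 0.0628 to 0.0792).

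ABCA1, the exporter to lipid-poor apolipoprotein, had 31.2, 39.6, 50.8 and 26.3 CPM at pH 6.4, 52.3, 63.6, 61.4 and 56.5 CPM at pH 6.9, and 29.3, 67.5, 31.7 and 46.6 CPM at pH 7.4. The pH 7.4 libraries spanned most of the range of the others, and the pH 6.4 libraries lay below those at pH 6.9. The log2 difference of ABCA1 was -0.25 for pH 6.4 against pH 7.4 (95% interval -0.75 to 0.26), 0.41 for pH 6.9 against pH 7.4 (95% interval -0.093 to 0.92) and -0.66 for pH 6.4 against pH 6.9 (adjusted p = 0.0697). The last was called with the block (adjusted p = 0.025) and without pH 6.4 repeat 3 or pH 7.4 repeat 1 or 2 (adjusted p = 0.0164 to 0.0458). MYLIP averaged 18.01 ± 2.98 CPM at pH 6.4, 21.1 ± 3.26 CPM at pH 6.9 and 17.8 ± 3.82 CPM at pH 7.4 (SD, n = 4 each), with no call, and was lower at pH 6.4 than at pH 6.9 with the block (log2 -0.23; adjusted p = 0.0451).

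The receptors were NR1H2 and NR1H3. NR1H3 fell at pH 6.4 to 8.67 ± 1.63 CPM, against 12.9 ± 2.44 CPM at pH 7.4 (SD, n = 4 each; log2 -0.57; adjusted p = 0.0163), a call lost without pH 6.4 repeat 4 or pH 7.4 repeat 2 (adjusted p = 0.0528 to 0.0591). NR1H3 had 10.7 ± 0.79 CPM at pH 6.9 and was not called there. NR1H2 averaged 75.1 ± 9.14 CPM at pH 6.4, 74.7 ± 9.63 CPM at pH 6.9 and 83.8 ± 4.81 CPM at pH 7.4 (SD, n = 4 each), with adjusted p = 0.279 for pH 6.4 against pH 7.4, or 0.0395 with the block.

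**Figure D5:**
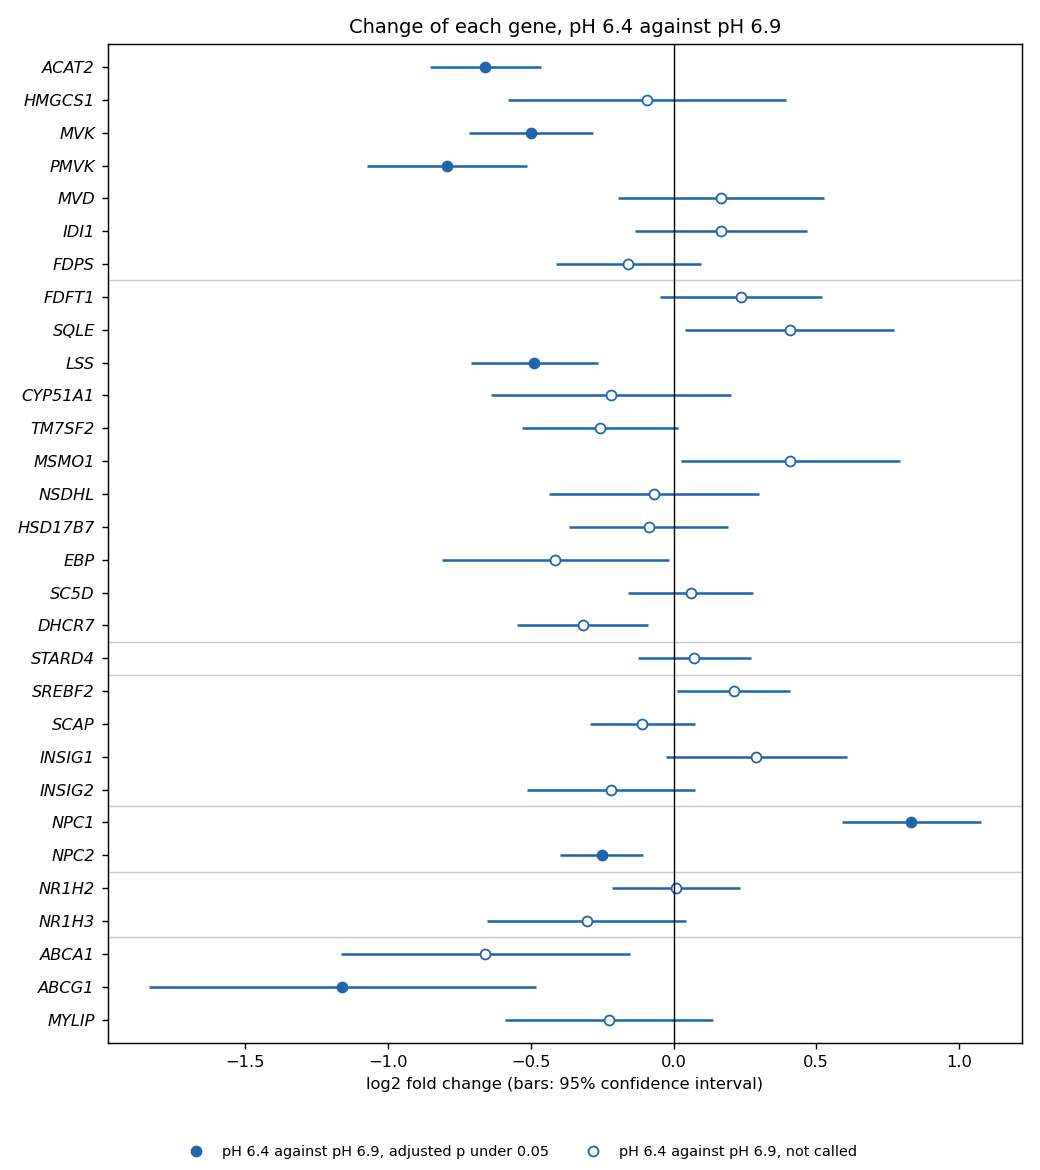
Log2 fold change of each gene for pH 6.4 against pH 6.9, with 95% confidence intervals, in pathway order. Filled points have an adjusted p under 0.05, namely the 6 lower genes ACAT2, MVK, PMVK, LSS, NPC2 and ABCG1 and the higher gene NPC1.

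The order of the media differed among the genes. For 15 of the 30 the mean was lowest at pH 6.4, then pH 6.9, then pH 7.4, and for 10 the lowest mean was at pH 6.9 with pH 6.4 next. Those 10 were 6 of the 18 synthesis genes, MVD, IDI1, FDFT1, SQLE, MSMO1 and SC5D, together with STARD4, SREBF2, INSIG1 and NR1H2. None of those 6 was called between pH 6.4 and pH 6.9, so their order is a description of the means. Within a medium, repeat 4 was the lowest library for 13 of the 18 at pH 6.9 and for 15 of the 18 at pH 7.4, and repeat 3 was the lowest for 10 of the 18 at pH 6.4.

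Other genes of cholesterol handling, 76 in a list by role, gave a mixed picture at pH 6.4. Of the 72 tested, 17 fell and 15 rose relative to pH 7.4, with a median log2 fold change of 0.08, against -0.00083 for all genes. Of all genes 14.7% were called lower and 15.6% higher in that comparison. At pH 6.9, 3 of the 72 fell and 1 rose relative to pH 7.4, against 0.41% and 0.313% of all genes. Between pH 6.4 and pH 6.9, 12 fell and 14 rose, against 8.2% and 8.83% of all genes.

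Of 13 genes of lipoprotein uptake and the lysosome, 5 fell and 4 rose at pH 6.4 relative to pH 7.4, where 14.7% of all genes were called lower and 15.6% higher. TMEM97, a sterol-regulated partner of NPC1, had 30.03 ± 4.21 CPM at pH 6.4, 50.5 ± 1.38 CPM at pH 6.9 and 79.1 ± 4.59 CPM at pH 7.4 (SD, n = 4 each). It fell by a log2 fold change of -1.40 at pH 6.4 (adjusted p = 9.61e-07) and -0.65 at pH 6.9 (adjusted p = 0.00532). LIPA, the lysosomal lipase that frees cholesterol from its esters, fell by -1.09 at pH 6.4 (adjusted p = 6.51e-06) and by -0.48 at pH 6.9 (adjusted p = 0.0333). VLDLR, a lipoprotein receptor, rose at pH 6.4 (log2 0.68; adjusted p = 0.0024).

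Among 16 partners of sterol and isoprenoid synthesis, 4 fell and none rose at pH 6.4, against 14.7% of all genes lower and 15.6% higher. CYB5A and POR, which bring electrons to the sterol oxidases, fell by log2 fold changes of -1.15 and -0.65, and the scaffold ERG28 by -0.76. Of these POR was also called at pH 6.9 (log2 -0.55; adjusted p = 0.0103).

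Among 12 genes of SREBP processing 3 fell and 2 rose at pH 6.4, where 14.7% of all genes were called lower and 15.6% higher. The coat proteins SEC23A and SEC24A, which carry SCAP and its cargo from the endoplasmic reticulum, rose by log2 fold changes of 0.89 and 0.93, and both were near their pH 7.4 level at pH 6.9, with log2 differences of 0.04 and 0.02. SREBF1, the gene of the related factor SREBP1, fell by -0.74 at pH 6.4 (adjusted p = 0.00515) and had a log2 difference of -0.07 at pH 6.9 (adjusted p = 0.933).

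Of 17 sterol transfer proteins 3 fell and 7 rose at pH 6.4, beside 14.7% and 15.6% of all genes, so that the number that fell was near the share of all genes. OSBPL6 rose 3.05-fold, to 24.4 ± 6.55 CPM at pH 6.4 against 7.997 ± 0.97 CPM at pH 7.4 (SD, n = 4 each), and OSBPL11 fell by -0.49 on the log2 scale. GRAMD1C, which moves cholesterol from the plasma membrane inward, rose at pH 6.4 (log2 1.33; adjusted p = 9.33e-05) and at pH 6.9 (log2 0.96; adjusted p = 0.0156). In esterification and storage SOAT1, which esterifies cholesterol, fell by -0.60 at pH 6.4, and NCEH1, a cholesteryl ester hydrolase, rose by 0.35. Of 9 tested LXR partners and targets 1 fell, 1 rose and 7 were not called at pH 6.4, beside 14.7% of all genes lower and 15.6% higher. The 1 that fell was LPCAT3, which remodels membrane phospholipids (log2 -1.07; adjusted p = 4.15e-05).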

How the data were processed

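MDA-MB-231 RNA was sequenced from stranded libraries of messenger RNA on a NextSeq500, per the labels' protocols. The authors deposited raw counts of reads per gene. The submitters' processing notes name STAR, featureCounts and the build GRCh38.p13, without versions or a strand setting. Rows with no gene name held up to 0.424% of a library. No library copied another in 66 pairs.

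In R 4.3.3, filterByExpr of edgeR 4.0.16 (minimum count 10) kept 17544 genes, which were scaled by TMM. A model with 1 term for each of the 3 media was fitted to all 12 libraries, and media were compared by edgeR's quasi-likelihood test with robust estimation, with Benjamini-Hochberg adjustment over all genes and a threshold of 0.05. An SE is the absolute log2 fold change over the root of the test's F. DESeq2 1.42.0 was an alternative. The test was tried on data simulated for pH 6.4 against pH 7.4, without any likeness between repeats. It recovered 47.8% of genes altered 1.5-fold, 82.1% of those altered 2-fold and 98.5% of those altered 4-fold. Of unaltered genes 0.0412% were called. Depth of 21060767 to 50643233 counts sets the precision of low genes.

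The numbers of the repeats were checked as a pairing on deviations from the medium means of 10215 genes. All 12 pairs of the same number correlated over 0.1 (0.293 to 0.786), as did 12 of 36 pairs of unlike number (-0.72 to 0.549). Those 12 pairs of unlike number all joined repeats 1 and 2 or repeats 3 and 4. Every pair across those groups correlated negatively. Deviations from a medium mean cancel within the medium, so negative values across the groups largely follow from the positive ones within them. For 9 of the 12 libraries the closest library in each other medium had the same number. The data thus show a split into repeats 1 with 2 and 3 with 4 as well as a likeness by number. No label states either, so the pairing by number is uncertain. The main calls come from the fit without the block, and results of the fit with the block are given where they change a call.

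The 30 genes and all lists were chosen with earlier results of these data known. Named were all 30, and from each role of the 76 other genes up to 3 with the lowest p among those called for pH 6.4 against pH 7.4, of which 1 is not reported here. Gene positions and overlaps come from GENCODE release 29, and promoters from RefSeq (GRCh38.p14).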

Additional observations from a re-analysis of the deposited data

Results flagged for a closer look

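In 6 of 90 sets of 4 libraries, 1 library stood apart from the other 3 by Dixon's test at 95%, where chance gives about 1 in 20. At pH 6.9, repeat 4 was the low one for MVD with 20.3 CPM (others 25.9 to 27.0), IDI1 with 113 CPM (others 144 to 146), FDFT1 with 129 CPM (others 162 to 168) and MSMO1 with 137 CPM (others 192 to 202). MSMO1 was low in repeat 4 at pH 7.4 too, with 246 CPM (others 328 to 340). MVK was high in repeat 3 at pH 6.9, with 35.7 CPM (others 30.1 to 31.0).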

How the results depend on the processing

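No called gene of the 30 changed its direction under any alternative. With the replicate block, calls went to 947 genes (127 without it) and 19 of the 30 (all lower) for pH 6.9 against pH 7.4, and to 5456 genes (2988 without it) and 13 of the 30 (11 lower, 2 higher) for pH 6.4 against pH 6.9. For pH 6.4 against pH 7.4 the block called 7290 genes (5321 without it) and 23 of the 30. Each gene whose call the block changed is named above, except EBP, called lower for pH 6.4 against pH 6.9 (adjusted p = 0.00241). Repeats 3 and 4 alone gave 1528 genes and 11 of the 30 (10 lower) for pH 6.4 against pH 7.4, and 0 in either other comparison by edgeR, where 18 of the 30 (pH 6.9 against pH 7.4) were lower at an unadjusted p under 0.05, and 7 lower and 1 higher (pH 6.4 against pH 6.9). At that unadjusted p, repeats 3 and 4 alone gave 607 of all genes lower for pH 6.9 against pH 7.4. For pH 6.4 against pH 6.9 they gave 1343 lower and 1806 higher. Repeats 1 and 2 alone gave 7 genes and 2 of the 30 for pH 6.9 against pH 7.4, and 1906 genes, with 2 of the 30 higher, for pH 6.4 against pH 6.9. For pH 6.9 against pH 7.4, no filter gave 201 genes, DESeq2 506 genes and 16 of the 30 (559 and 18 with independent filtering), a fit of those media alone 250 genes and 13 of the 30, and leaving out both libraries of few detected genes, chosen after seeing the data, 20 genes and 1 of the 30. Leaving out 1 library gave 39 to 306 genes and 4 to 16 of the 30 for pH 6.9 against pH 7.4. For pH 6.4 against pH 6.9 it gave 1171 to 4944 genes and 5 to 13 of the 30, with 4 to 7 lower and 1 to 6 higher. The highest values came without pH 6.4 repeat 3. The count of genes moved by over 1.5 times, for pH 6.9 against pH 7.4, without any library but pH 6.4 repeat 2 or 4 (306 without pH 6.4 repeat 3, 39 without pH 7.4 repeat 3, 48 to 83 without the others), and for pH 6.4 against pH 6.9 without pH 6.4 repeat 2 (1171), pH 6.4 repeat 4 (1231), or pH 6.9 repeat 1 (1570), 3 (1628) or 4 (1880). For pH 6.4 against pH 7.4, STARD4 lost its call with DESeq2's size factors (adjusted p = 0.0511), with no filter (0.0905) and with those media alone in the fit (0.0904), which also lost MVD (0.0546) and FDFT1 (0.0554). For pH 6.4 against pH 6.9, NPC2 lost its call with no filter (adjusted p = 0.122). The cause of these changes was not tested. Fewer libraries leave fewer degrees of freedom.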
